A study of Homo sapiens with 6 samples.

Results

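Semaphorins, plexins and neuropilins were examined in RNA-seq libraries of HepG2 cells. The members are the genes of the deposited table named NRP1 or NRP2, SEMA with a class number from 3 to 7 and a letter, or PLXN with a letter and a number, which gave 30 of 20026 genes: 19 semaphorins, 9 plexins and 2 neuropilins. HepG2 is an established line of human liver cancer cells. The 6 libraries fall into 3 groups of 2 each. Scramble (Scr) cells carry the genotype label WT and, per the methods, received the Cas9 vector PX458 without a guide against a miRNA. The cells of miR-23a KO and those of miR-27a KO received the same vector with a pair of guides on either side of mature miR-23a or mature miR-27a, and colonies were grown from single sorted cells. The study used these libraries to find genes influenced by miR-23a and miR-27a, which share a cluster with miR-24. Its qPCR found lower miR-27a-3p and miR-24-3p after miR-23a KO, and lower miR-24 after miR-27a KO, so neither knockout isolates a single miRNA. After miR-27a KO, miR-23a-3p rose slightly and miR-23a-5p fell, and the paper considers a change of miR-23a unlikely. The labels do not say whether the replicates of a group are separate colonies, cultures or preparations, so p-values measure the spread between these libraries, which may be technical. For the same reason, an effect of a knockout and a trait of the colony grown cannot be told apart here. The miRNA genes were not analysed here, and labels alone give the group of a library. Library totals ranged from 14405250 to 16515261 counts. The members held between 0.238% and 0.371% of the counts of a library.

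Semaphorins are guidance cues, first known from the steering of growing nerve fibres and since found in blood vessels, immune cells, liver and tumours. They bind plexins, receptors whose inner part switches off small GTPases of the Ras family and so loosens the cell's hold on its surroundings. Class 3 semaphorins are secreted and most need a neuropilin as a co-receptor beside a plexin, class 4, 5 and 6 semaphorins span the membrane, and class 7 is anchored in it by a lipid. Neuropilins also bind vascular endothelial growth factors, and so take part in the growth of vessels.

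The mature miRNAs that the knockouts targeted are shown with the seed, bases 2 to 8, in capitals. They come from RefSeq on GRCh38.p14 and lie on the minus strand of chromosome 19, miR-23a-3p from 13836595 to 13836615 and miR-27a-3p from 13836447 to 13836467. Their seeds differ, and a matching site in an mRNA reads AATGTGA for the first and ACTGTGA for the second.
miR-23a-3p: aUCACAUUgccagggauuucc
miR-27a-3p: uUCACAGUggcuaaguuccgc

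Exact matches to these sites were searched on the sense strand of the longest annotated 3'-UTR per gene (GENCODE release 29, GRCh38), which all 30 members have. Sites of miR-27a-3p were found in 7 members and those of miR-23a-3p in 6, against 18.3% and 20.7% of the 15933 genes with a 3'-UTR. The members with a miR-27a-3p site were NRP2, PLXND1, SEMA3A, SEMA5A, SEMA6A, SEMA6D and SEMA7A. Those with a miR-23a-3p site were PLXNA4, PLXNC1, SEMA3A, SEMA3C, SEMA5A and SEMA6D. The miR-27a-3p sites of the 4 members that also passed the test in miR-27a KO are shown because their changes can be read beside them. Capitals mark the site, with 11 bases on either side.
NRP2: ctttccttattACTGTGAcaccccttgca
PLXND1: atcatgcaccaACTGTGAatagctgccgc
SEMA3A: tccatttctagACTGTGAgctccttgagg
SEMA6A: tatgcgcaaatACTGTGAaatgcccgcca

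These 3'-UTR sites lie at bases 205779597 to 205779603 of chromosome 2 on the plus strand for NRP2, and on the minus strand for the others. PLXND1 has its site at 129555505 to 129555511 of chromosome 3. The SEMA3A site is at 83957089 to 83957095 of chromosome 7. The SEMA6A site is at 116446039 to 116446045 of chromosome 5. A match is a description of the letters and was not tested as a binding site.

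The level of a gene is given as CPM, counts divided by library size and scaled by TMM factors over the 6 libraries. Set per kilobase of the longest transcript, which allows genes to be compared, the highest level in Scr was that of SEMA6B, a membrane semaphorin of class 6, at 174 CPM per kb. SEMA3B, a secreted class 3 semaphorin, followed at 105 CPM per kb, and SEMA4G, a membrane semaphorin of class 4, at 84.4 CPM per kb. PLXNB2, a receptor for class 4 semaphorins, had the highest plexin level at 65.2 CPM per kb, and PLXND1, a receptor for class 3 and class 4 semaphorins, had 38.3 CPM per kb. The neuropilins lay in the middle of the order, at 6.09 CPM per kb for NRP1 and 3.82 CPM per kb for NRP2. In CPM without the length, SEMA6B alone made up between 29.4% and 61.7% of the summed semaphorin level of a library.

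At the low end, 6 members were not tested in any comparison because their counts were too low. PLXNA4 had between 0 and 2 counts per library, SEMA3E between 0 and 2, SEMA5B between 0 and 4, SEMA6D between 0 and 7, SEMA5A between 0 and 8, and SEMA3C between 0 and 12. No difference was read from such counts. The other 24 members were tested in all 3 comparisons, among them SEMA4D, the main ligand of PLXNB1, with only 4 to 17 counts per library. Of these 24, SEMA6A had under 10 counts in both miR-23a KO libraries and NRP1 and NRP2 in both miR-27a KO libraries, so these passed the filter through the other group.

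**Figure D1:**
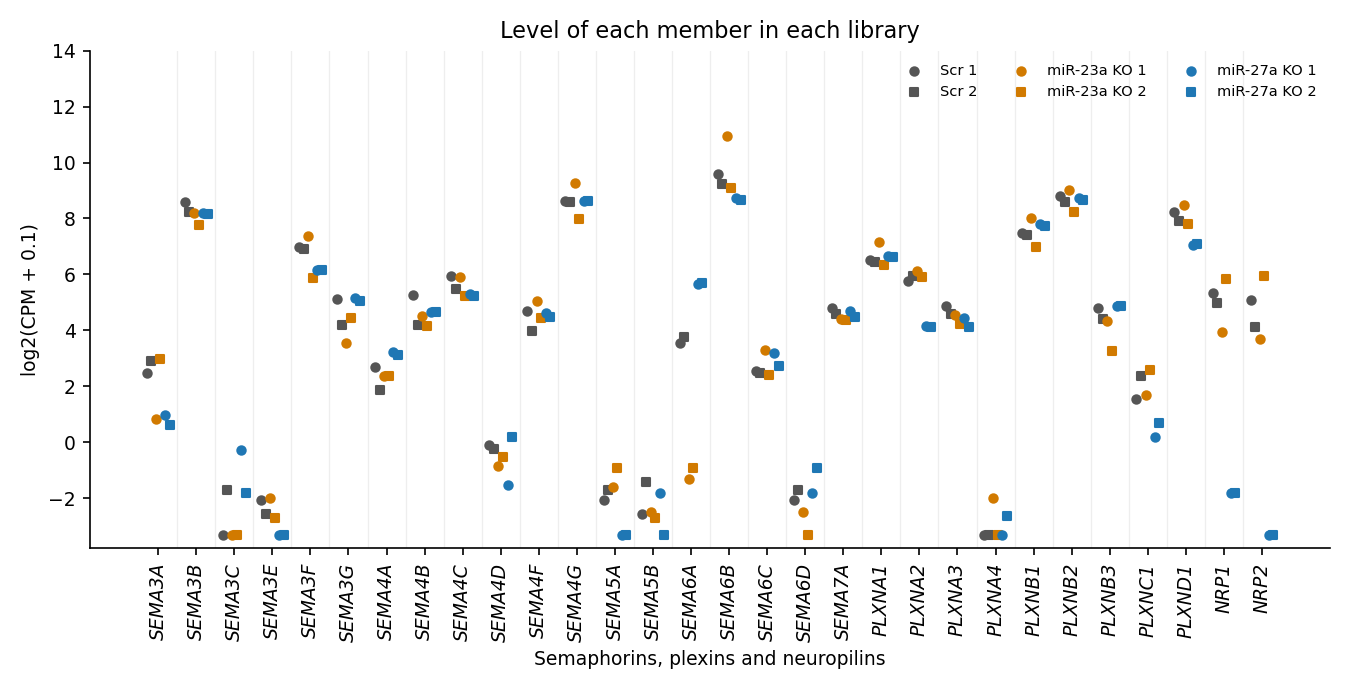
Level of the 30 members in each library as log2(CPM + 0.1), with circles for replicate 1 and squares for replicate 2. The libraries of miR-27a KO lie far below the others for NRP1 and NRP2, and for SEMA6A the knockouts lie on opposite sides of Scr.

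In miR-27a KO against Scr, the neuropilins fell to the edge of detection, several of their partners among the ligands and receptors fell less, and SEMA6A rose. Of the 24 members tested, 8 passed both an adjusted p under 0.05 by edgeR and a fold change over 1.5 (called from here on), namely 1 higher (SEMA6A) and 7 lower (SEMA3A, SEMA3F, SEMA6B, PLXNA2, PLXND1, NRP1 and NRP2). Over all 13820 genes tested, 3.52% were called higher and 6.74% lower. At the adjusted p under 0.001 used in the study, 0 members were called by edgeR, where 4 genes or 0.0289% of all genes were. The study itself reported far more genes at its threshold for each knockout against Scr, and it does not name the test behind its q-values. At an unadjusted p under 0.05, 3 members were higher and 9 lower, beside 1902 and 2545 of the 13820 genes. With no overlap of the libraries and a fold change over 1.5, 2 members were higher and 8 lower, beside 10.8% and 12.7% of all genes. The median log2 fold change of the 24 members was -0.22, also with NRP2 set at the bound given below, against 0.01 over all genes. Adjusted p-values come from the edgeR quasi-likelihood test and are Benjamini-Hochberg values over all genes tested.

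Among the secreted ligands, SEMA3A, which repels axons and vessels through NRP1 and a class A plexin, had 5.42 and 7.43 CPM in Scr, 1.67 and 7.80 after miR-23a KO, and 1.88 and 1.44 after miR-27a KO. Both miR-27a KO libraries lay below both Scr libraries, while the miR-23a KO libraries lay on either side of them. The log2 fold change in miR-27a KO was -1.95 (standard error, SE, 0.33, edgeR adjusted p = 0.0253), on 24 and 31 counts. SEMA3F, whose preferred co-receptor is NRP2, had 128 and 120 CPM in Scr, 167 and 58.1 after miR-23a KO, and 71.3 and 71.6 after miR-27a KO. Again the miR-27a KO libraries were both below Scr and the miR-23a KO libraries on either side. SEMA3F fell by 0.80 on the log2 scale in miR-27a KO (SE 0.08, edgeR adjusted p = 0.00929). The other class 3 ligands tested were not called. SEMA3B had 284 to 389 CPM over Scr and miR-27a KO, with both miR-27a KO libraries below Scr, and SEMA3G had 18.1 to 35.9 CPM with overlapping groups.

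SEMA6A, a membrane ligand of PLXNA2 and PLXNA4, had 168 and 200 counts in Scr, 4 and 8 after miR-23a KO, and 834 and 858 after miR-27a KO. In CPM these were 11.7 and 13.5, then 0.304 and 0.431, then 50.5 and 51.7. The 3 groups did not overlap, with miR-27a KO highest, Scr between and miR-23a KO lowest. Against Scr, SEMA6A rose by 2.02 on the log2 scale in miR-27a KO (SE 0.13, edgeR adjusted p = 0.00400). SEMA6B, a membrane ligand of class A plexins, had 780 and 604 CPM in Scr, 2002 and 539 after miR-23a KO, and 424 and 400 after miR-27a KO. The lowest libraries were those of miR-27a KO, and miR-23a KO replicate 1 was far above all others. SEMA6B had a log2 fold change of -0.75 in miR-27a KO (SE 0.14, edgeR adjusted p = 0.0310).

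Class 4 semaphorins and SEMA7A were not called in miR-27a KO. SEMA4A, a membrane semaphorin best known from immune cells, had 6.33 and 3.51 CPM in Scr, 5.10 and 5.06 after miR-23a KO, and 9.27 and 8.61 after miR-27a KO. Both miR-27a KO libraries lay above the rest. The log2 fold change against Scr was 0.86 (SE 0.33), which missed the threshold (edgeR adjusted p = 0.147). SEMA4G, the class 4 member with the highest level, had 400 and 386 CPM in Scr and 399 and 395 in miR-27a KO, which overlap. SEMA7A, a lipid-anchored ligand of PLXNC1 with 2 miR-27a-3p sites, had 27.9 and 23.8 CPM in Scr and 25.7 and 22.2 in miR-27a KO, which overlap as well.

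Of the receptors, PLXNA2, a class A plexin that signals with neuropilins or binds SEMA6A directly, had 53.8 and 61.5 CPM in Scr, 69.1 and 59.9 after miR-23a KO, and 17.7 and 17.2 after miR-27a KO. The miR-27a KO libraries were the lowest, and those of miR-23a KO and Scr overlapped. PLXNA2 had a log2 fold change of -1.73 in miR-27a KO (SE 0.12, edgeR adjusted p = 0.00448). PLXND1, a receptor of SEMA3E on vessel cells, had 303 and 240 CPM in Scr, 355 and 225 after miR-23a KO, and 132 and 137 after miR-27a KO. Here too the miR-27a KO libraries lay below all others. Its log2 fold change was -1.02 in miR-27a KO (SE 0.13, edgeR adjusted p = 0.0142). PLXNC1, the receptor of SEMA7A, had 2.78 and 4.999 CPM in Scr, 3.12 and 5.87 after miR-23a KO, and 1.03 and 1.51 after miR-27a KO. The miR-27a KO libraries were again the lowest, but at 17 and 25 counts the log2 fold change of -1.62 (SE 0.45) missed the threshold (edgeR adjusted p = 0.0733).

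The class B plexins, receptors of class 4 semaphorins, were not called. PLXNB2 had 446 and 386 CPM in Scr and 429 and 409 in miR-27a KO, which overlap. PLXNB1 had 177 and 168 CPM in Scr and 221 and 210 in miR-27a KO, and PLXNB3 had 27.5 and 21.3 against 29.13 and 28.96. For PLXNB1 and PLXNB3 each miR-27a KO library was above each Scr library, by less than 1.5-fold on average. PLXNA1 and PLXNA3, class A plexins that pair with neuropilins, were also within 1.5-fold of Scr.

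NRP1, the co-receptor of SEMA3A that also binds VEGF-A, had 578 and 465 counts in Scr, 200 and 1056 after miR-23a KO, and 3 and 3 after miR-27a KO. This corresponds to 40.2 and 31.4 CPM, 15.2 and 56.8 CPM, and 0.182 and 0.181 CPM. The miR-27a KO libraries were far below all others, and the miR-23a KO libraries lay on either side of Scr. Over the group, Scr was 197 times miR-27a KO, with an exact 95% counting interval of 90.3 to 539. Such intervals, and the floor used for NRP2 below, cover counting error only. In the fit, NRP1 had a log2 fold change of -7.57 (SE 0.30, edgeR adjusted p = 0.00164).

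NRP2, the co-receptor of SEMA3F that also binds VEGF-C, had 482 and 258 counts in Scr, 169 and 1138 after miR-23a KO, and 0 and 0 after miR-27a KO. In CPM these were 33.5 and 17.4 in Scr, 12.9 and 61.3 after miR-23a KO, and 0 after miR-27a KO. NRP2 was thus not detected in miR-27a KO, while the miR-23a KO libraries lay on either side of Scr. With a floor of 3 counts per library, NRP2 was at least 140.6-fold lower in miR-27a KO than in Scr. It was at least 96.2-fold lower against the Scr library with the lower level. The difference was called (edgeR adjusted p = 0.00888). The fitted log2 fold change of -11.63 (SE 0.92) depends on the prior count and is not a bound. The summed level of both neuropilins was 73.7 and 48.8 CPM in Scr, 28.1 and 118 after miR-23a KO, and 0.182 and 0.181 after miR-27a KO.

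**Figure D2:**
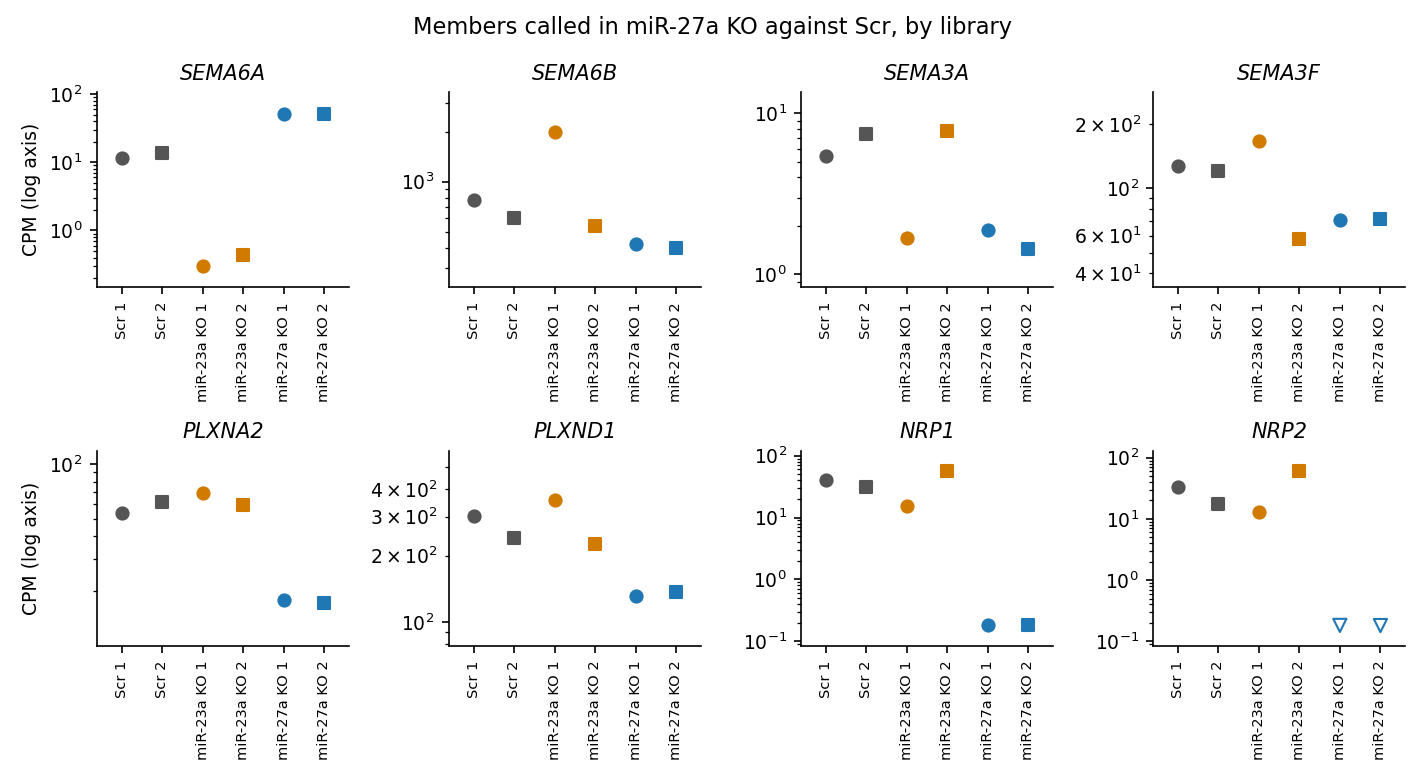
CPM on a log axis in each library for the 8 members called in miR-27a KO against Scr, with circles for replicate 1 and squares for replicate 2. Open triangles mark NRP2 at 0 counts in miR-27a KO, drawn at 3 counts. In each panel but that of SEMA6A the miR-27a KO libraries lie below both Scr libraries.

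These calls changed with the settings. In a fit of all 6 libraries, only NRP1 of the 8 was called (edgeR adjusted p = 0.0390), and the others had edgeR adjusted p between 0.0654 and 0.985. The fold changes hardly moved in that fit, with PLXNA2 at -1.72 and SEMA6A at 2.02, and why the calls were lost was not tested. With GC content and length corrected, SEMA3F and SEMA6B were within 1.5-fold of Scr, at log2 fold changes of -0.54 and -0.49. Without either one of the miR-27a KO libraries, SEMA3A, SEMA3F and SEMA6B were no longer called, with edgeR adjusted p between 0.0819 and 0.212, and without Scr replicate 1 SEMA6B was at -0.55. Without a filter on low counts SEMA6B was not called either (edgeR adjusted p = 0.0539). The calls of NRP1, NRP2, PLXNA2, PLXND1 and SEMA6A held in each of the 4 fits that left out a library. PLXNC1 was called in 3 of the 7 other settings and SEMA4A in 1.

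**Figure D3:**
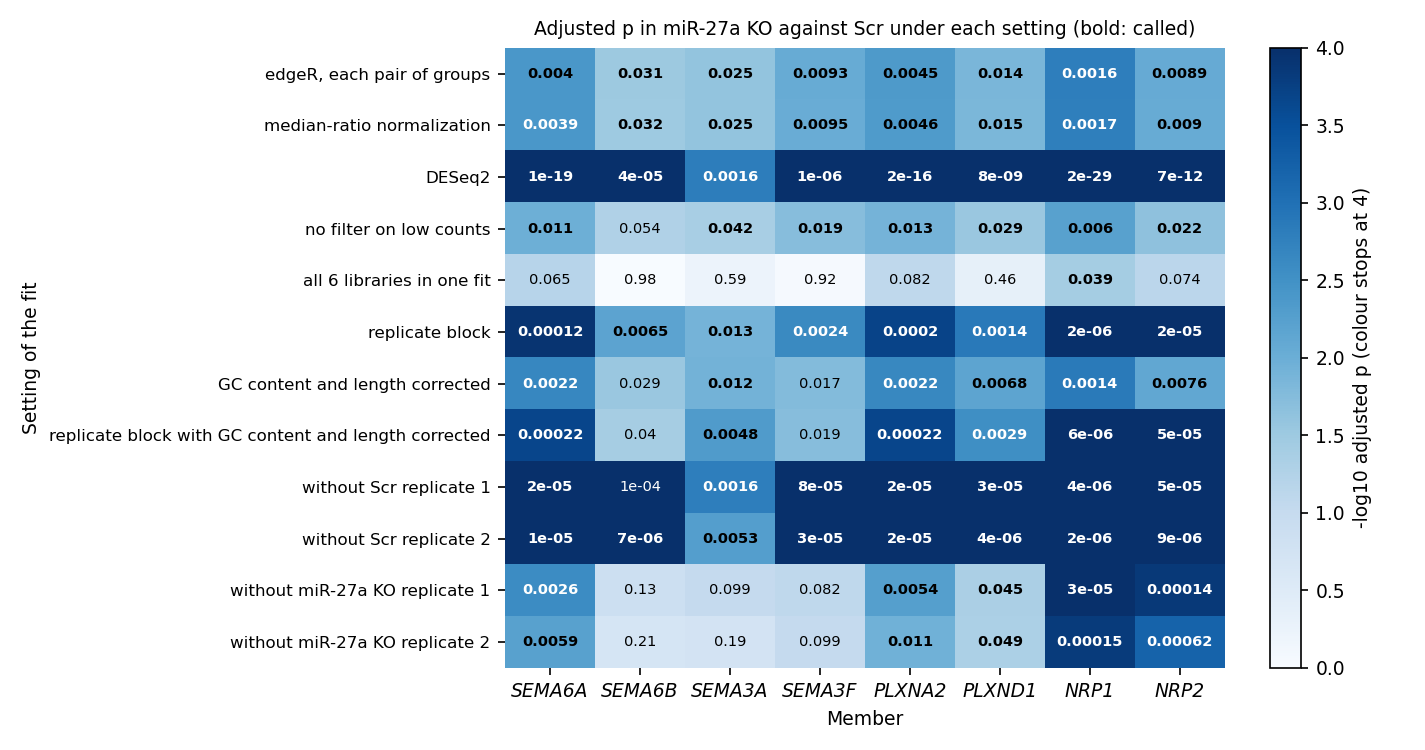
Adjusted p of the 8 members called in miR-27a KO against Scr under each setting of the fit, with bold type for a call. NRP1 is called under every setting shown, and the fit of all 6 libraries calls none of the other 7.

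The libraries of a group lay apart to different degrees. Over 23 members with at least 20 counts per library on average, the libraries of a pair differed by a median of 0.35 on the log2 scale for Scr, 0.81 for miR-23a KO and 0.06 for miR-27a KO. Of these members, the pair was more than 2-fold apart for 1 in Scr, for 8 in miR-23a KO and for 0 in miR-27a KO, beside 749, 5814 and 157 of 12372 genes. In miR-23a KO the ratio of replicate 2 over replicate 1 was mostly higher at lower GC content. SEMA3A (36.7% GC) and NRP1 (44.7% GC) were higher in replicate 2, with log2 ratios of 2.16 and 1.89. SEMA6B (67.7% GC) and SEMA3F (62.7% GC) were lower there, at -1.89 and -1.52. The members furthest from genes of similar GC content were NRP2 (50.4% GC) at 2.24, where genes with 50 to 55% GC had a median of -0.26, and SEMA3G (58.4% GC) at 0.89, where genes with 55 to 60% GC had -0.85. SEMA7A (60.5% GC) was nearly equal in both libraries at -0.05, where genes above 60% GC had -1.25. Across the 23 members the ratio correlated with GC content at r = -0.84 in miR-23a KO, -0.35 in Scr and -0.09 in miR-27a KO, where all 12372 genes gave -0.66, -0.40 and -0.04. These correlations run across genes, which share the libraries and are not independent replicates. The part of base composition in the differences within the pair was not tested. The members were rich in GC, with a median of 60.4% against 49.1% over these genes.

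**Figure D4:**
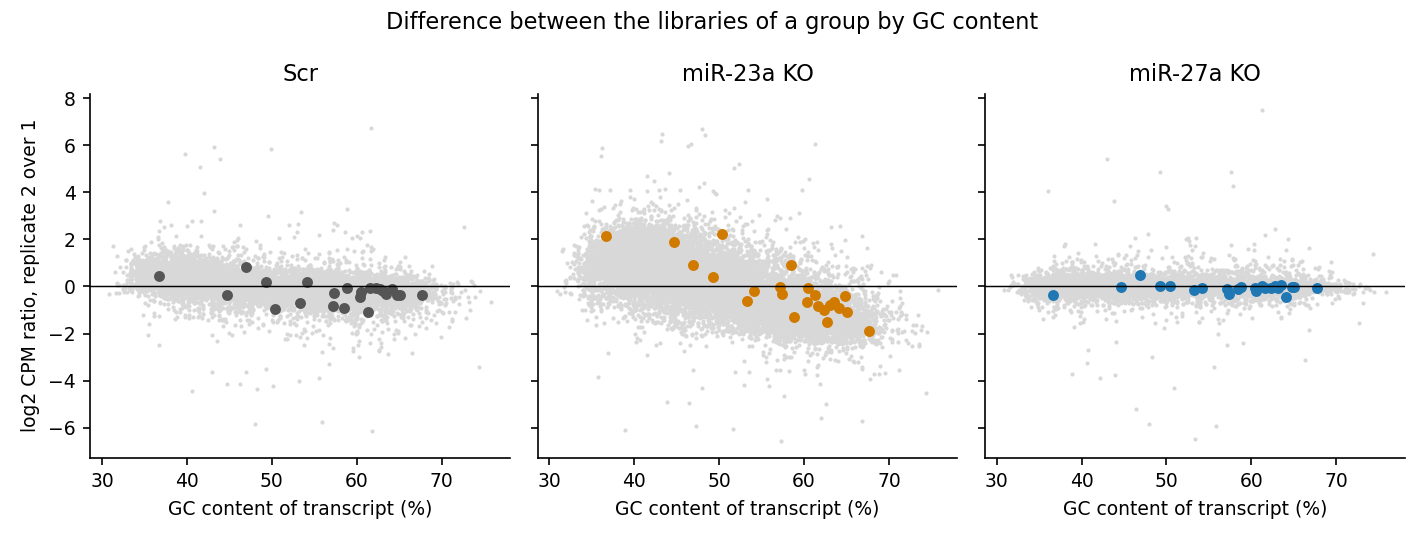
log2 ratio of CPM in replicate 2 over replicate 1 against the GC content of the longest transcript, for each group. Coloured points are the 23 members with enough counts and grey points all 12372 genes. In miR-23a KO the ratio falls with GC content, and in miR-27a KO the members lie near 0.

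In miR-23a KO against Scr, SEMA6A was near the edge of detection while most other members overlapped with Scr. This comparison uses the same Scr libraries as the one above. The edgeR test called 0 of 24 members in either direction, beside 0% of all 13786 genes higher and 0% lower, and likewise 0% at an adjusted p under 0.001. DESeq2 called 63 genes, of which 1 is a member (SEMA6A). At an unadjusted p under 0.05 edgeR had 1 member lower (SEMA6A) and 0 higher, among 214 genes lower and 118 higher. With no overlap of the libraries and a fold change over 1.5, 0 members were higher and 2 lower (PLXNB3 and SEMA6A), beside 6.19% and 6.59% of all genes. The median log2 fold change of the members was 0.06 against 0.16 over all genes.

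SEMA6A had 33.3 times the level of miR-23a KO in Scr over the group, with an exact 95% counting interval of 18.9 to 65.1. Its log2 fold change was -4.98 (SE 0.74), which missed the threshold after adjustment (edgeR adjusted p = 0.316). In 6 of the 7 other settings it was called, with adjusted p from edgeR or DESeq2 between 2.01e-07 and 0.238 over the 7. It was called without either one of the miR-23a KO libraries, but not without Scr replicate 1 or Scr replicate 2 (edgeR adjusted p = 0.244 and 0.345). PLXNB3, a receptor of SEMA5A, had 27.5 and 21.3 CPM in Scr and 19.9 and 9.42 in miR-23a KO. Both miR-23a KO libraries were below Scr, the nearest pair by little. PLXNB3 had a log2 fold change of -0.69 (SE 0.54, edgeR adjusted p = 1.00), which was -1.33 when replicate 1 of miR-23a KO was left out and -0.29, under 1.5-fold, when replicate 2 was.

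For the neuropilins, miR-23a KO replicate 1 was below Scr and replicate 2 above. NRP1 had a log2 fold change of 0.12 (SE 0.66, edgeR adjusted p = 1.00), which turned to -1.23 when replicate 2 was left out and was 0.71 when replicate 1 was. A correction for GC content and length gave -0.04. Without replicate 2 it was called lower (edgeR adjusted p = 0.0212, against 0.0212 to 1.00 over all fits that left out a library). NRP2 had 0.65 (SE 0.76, edgeR adjusted p = 1.00), with 1.31 and -0.98 without replicate 1 and replicate 2. SEMA6B was highest in replicate 1 and below Scr in replicate 2, so the mean of 1271 ± 1035 CPM (SD, n = 2) against 692 ± 125 in Scr rests on a single library. Fits without a miR-23a KO library called some members, but among many more genes than the main fit. They are not read as a result about the members.

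Between miR-23a KO and miR-27a KO, a comparison that asks whether the knockouts differ from each other, the neuropilins, PLXNA2 and PLXND1 were higher and SEMA6A lower in every miR-23a KO library. The edgeR test called 0 of 24 members, with 0% of all 13841 genes higher, 0% lower and 0% at an adjusted p under 0.001. DESeq2 called 477 genes, of which 4 are members (NRP1, NRP2, PLXNA2 and SEMA6A). At an unadjusted p under 0.05 edgeR had 5 members higher and 1 lower, among 645 and 562 genes. With no overlap of the libraries and a fold change over 1.5, 6 members were higher in miR-23a KO (NRP1, NRP2, PLXNA2, PLXNC1, PLXND1 and SEMA6B) and 4 lower (PLXNB3, SEMA3G, SEMA4A and SEMA6A), beside 13.3% and 11.9% of all genes. The median log2 fold change was 0.12 for the members and 0.11 for all genes.

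NRP1 was 219 times higher in miR-23a KO than in miR-27a KO over the group, with an exact 95% counting interval of 100.1 to 597. The log2 fold change was 7.58 (SE 0.97), which did not pass the threshold (edgeR adjusted p = 0.101). It was 8.23 without miR-23a KO replicate 1 and 6.33 when replicate 2 was left out, a dependence on single libraries that the counting interval does not cover. NRP2 was at least 204.5 times its miR-27a KO level in miR-23a KO, and at least 70.9 times in the miR-23a KO library with the lower level (edgeR adjusted p = 0.158, fitted log2 fold change 12.23 with SE 1.76). SEMA6A had a log2 fold change of -7.06 (SE 0.45, edgeR adjusted p = 0.0803), and over the group miR-27a KO was 135 times miR-23a KO (exact 95% counting interval 77.1 to 262). Each of these 3 members was called in 5 of the 7 other settings, and each passed the filter on low counts through its higher group only. Over the 4 fits that left out a library, the log2 fold change of SEMA6A ran from -7.35 to -6.87.

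The other members over 1.5-fold without overlap differed less, and edgeR called none of them. Higher in miR-23a KO were PLXNA2 at a log2 fold change of 1.89 (SE 0.32, adjusted p = 0.1545 by edgeR), PLXNC1 at 1.83 (0.57 and 0.436), PLXND1 at 1.11 (0.39 and 0.510) and SEMA6B at 1.63 (0.70 and 0.631). PLXNA2 was called in 3 of the 7 other settings, PLXNC1 in 1, and PLXND1 and SEMA6B in 0. Without either one of the miR-23a KO libraries, PLXNA2, PLXNC1 and PLXND1 were called by edgeR. SEMA6B rests on replicate 1, as its log2 fold change was 0.38 without that library and 2.285 without replicate 2. Lower were PLXNB3 at -0.99 (0.47 and edgeR adjusted p = 0.6945), SEMA3G, a class 3 semaphorin of vessel walls, at -1.03 (0.43 and 0.6215) and SEMA4A at -0.81 (0.38 and 0.683). None of these 3 was called in the 7 other settings. PLXNB3 was at -1.63 without miR-23a KO replicate 1 and at -0.54 without replicate 2. In the same order, SEMA3G was at -0.66 and -1.55, and SEMA4A at -0.83 and -0.80. Calls of these members in such fits also came among many of all genes. Fits without a miR-27a KO library called none of them.

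**Figure D5:**
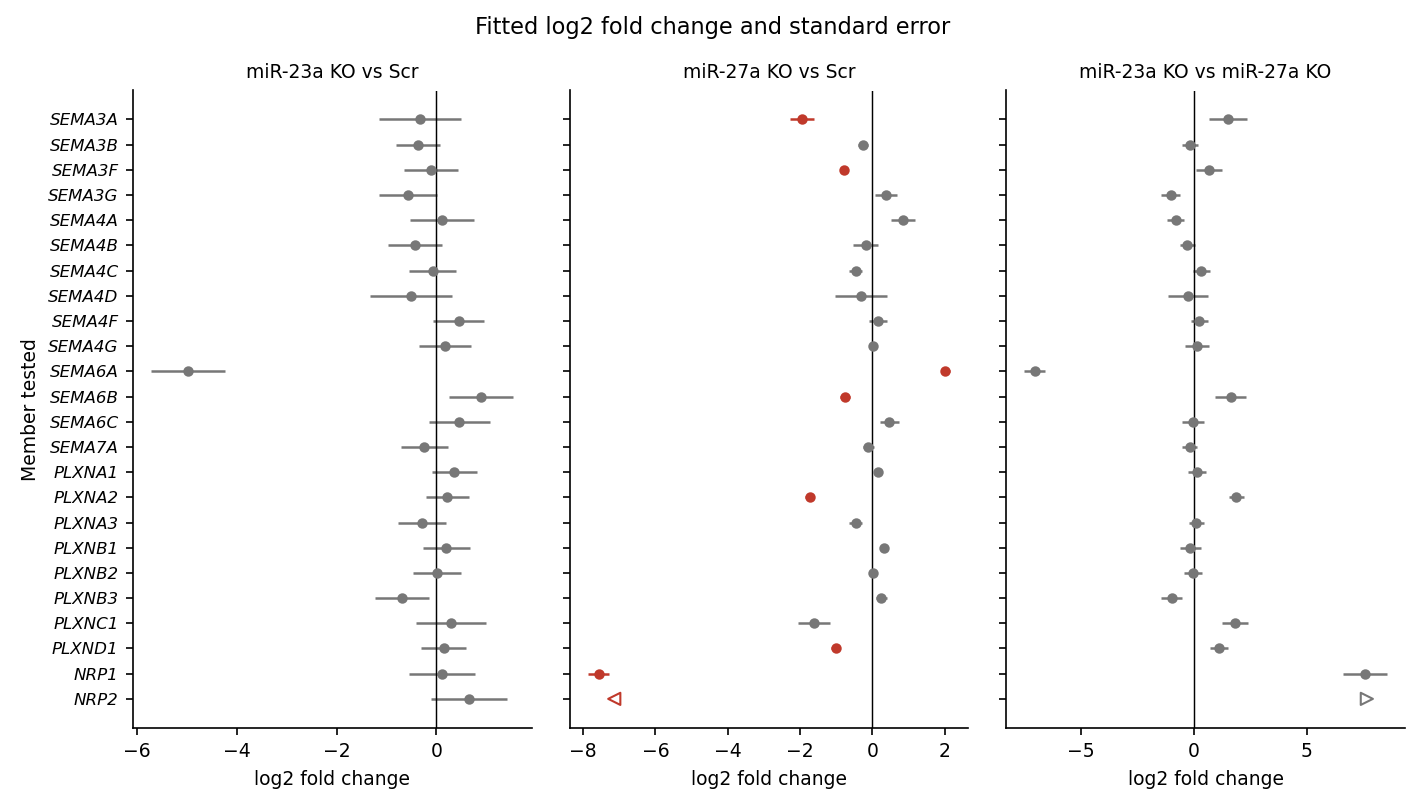
Fitted log2 fold change of the 24 members tested in each comparison, with bars of 1 SE and red points for calls. Open triangles mark NRP2 where miR-27a KO had 0 counts, drawn at the bound of 3 counts per library. The horizontal scales differ between panels, and calls stand in the middle panel only.

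The members with a seed site moved in both directions. Of the 5 tested members with a miR-27a-3p site, 1 was higher in miR-27a KO (SEMA6A) and 4 lower (NRP2, PLXND1, SEMA3A and SEMA7A), with a median log2 fold change of -1.02. SEMA7A overlapped with Scr. The 19 tested members without this site had a median of -0.18. Over all genes these medians were 0.07 for 2316 genes with the site and -0.01 for 9995 without. NRP1, which also fell to the edge of detection, has no site of either miRNA in the 3'-UTR searched. In miR-23a KO, the 2 tested members with a miR-23a-3p site were PLXNC1 and SEMA3A, both with libraries that overlap with Scr.

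Other genes that act with these families were counted from lists of binding partners, intracellular effectors, proteases and other guidance families. In miR-23a KO against Scr and between the knockouts, edgeR called 0 genes of the 4 lists, and at an unadjusted p under 0.05 the lists had between 0 and 2 genes in each direction. In miR-27a KO against Scr calls were made in each list, to be read beside the 3.52% higher and 6.74% lower of all genes tested. Of 11 tested co-receptors and other binding partners, 1 was higher and 2 lower (all genes 3.52% and 6.74%), with a median log2 fold change of 0.02. ERBB2, a receptor kinase that pairs with PLXNB1, had 648 and 528 counts in Scr and 1503 and 1199 in miR-27a KO, a log2 fold change of 1.01 (SE 0.17, edgeR adjusted p = 0.0253). NRCAM, an adhesion protein that joins NRP2 in semaphorin receptors, had 162 and 275 counts against 24 and 37, a log2 fold change of -3.02 (SE 0.37, edgeR adjusted p = 0.0134). PGF, a growth factor of the VEGF family that binds neuropilins, had 468 and 460 counts against 157 and 157, a log2 fold change of -1.75 (SE 0.14, edgeR adjusted p = 0.00546). For each of these genes the miR-27a KO libraries did not overlap with Scr.

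Of 34 tested intracellular effectors, 0 were higher and 5 lower in miR-27a KO (all genes 3.52% and 6.74%), with a median log2 fold change of -0.09. MRAS, a GTPase of the Ras family that plexins can switch off, had 117 and 114 counts in Scr against 2 and 1 in miR-27a KO. Scr was 87.4 times miR-27a KO for this gene, with an exact 95% counting interval of 29.5 to 427 (edgeR adjusted p = 0.004215). MRAS thus passed the filter on low counts through Scr. MICAL1, an enzyme that oxidises actin downstream of class A plexins, had 492 and 427 counts against 234 and 208, a log2 fold change of -1.24 (SE 0.16, edgeR adjusted p = 0.0145). FES, a tyrosine kinase in SEMA3A signalling, had 290 and 305 counts against 190 and 139, a log2 fold change of -1.04 (SE 0.20, edgeR adjusted p = 0.0338). All 3 were lower in both miR-27a KO libraries than in either Scr library.

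Of 7 tested proteases that cut semaphorins or neuropilins, 2 were higher and 1 lower in miR-27a KO (all genes 3.52% and 6.74%), with a median log2 fold change of 0.15. FURIN, the convertase that processes class 3 semaphorins, had 4599 and 5143 counts in Scr against 2258 and 2305, a log2 fold change of -1.28 (SE 0.08, edgeR adjusted p = 0.00400). PCSK5, a convertase of the same family, had 16 and 9 counts against 99 and 125, a log2 fold change of 2.96 (SE 0.39, edgeR adjusted p = 0.0153). With 9 counts in Scr replicate 2, PCSK5 passed the filter on low counts through miR-27a KO. ADAM17, a protease that sheds membrane proteins, had 246 and 267 counts against 481 and 428, a log2 fold change of 0.64 (SE 0.14, edgeR adjusted p = 0.0427). No miR-27a KO library of these genes overlapped with Scr, and the convertases FURIN and PCSK5 moved in opposite directions.

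Of 14 tested genes of the netrin, slit and ephrin families, 1 was higher and 2 lower in miR-27a KO (all genes 3.52% and 6.74%), with a median log2 fold change of -0.03. NEO1, a receptor of netrins, had 91 and 91 counts in Scr against 447 and 444, a log2 fold change of 2.10 (SE 0.15, edgeR adjusted p = 0.00465). EPHA2, an ephrin receptor, had 5750 and 4528 counts against 2798 and 2859, a log2 fold change of -1.05 (SE 0.14, edgeR adjusted p = 0.01565). EFNA2, an ephrin, had 756 and 664 counts against 549 and 517, a log2 fold change of -0.60 (SE 0.13, edgeR adjusted p = 0.0381). In these genes the groups did not overlap.

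The labelled cell type was read against marker genes, since neuropilins and semaphorins are also made by vessel, nerve and immune cells. All 10 hepatocyte markers were detected in each library, at a summed 31158 and 38834 CPM in Scr, 33606 and 33776 after miR-23a KO, and 27889 and 27893 after miR-27a KO, with SERPINA1 or ALB the most abundant. The sum hides differences between genes in miR-27a KO. ALB, the main plasma protein, had 10419 and 15110 CPM in Scr against 2087 and 2150 there, and AFP, its fetal relative, had 2589 and 3913 against 184 and 192. TF, an iron carrier, had 3317 and 2266 CPM against 6547 and 6746. These libraries did not overlap with Scr. The 6 endothelial markers in the table summed to 8.06 and 7.57 CPM in Scr, 4.41 and 7.32 after miR-23a KO, and 4.91 and 6.62 after miR-27a KO, with PECAM1 the most abundant. Of the defining endothelial genes, TEK had 0 counts in 5 of 6 libraries and CDH5 between 1 and 11. PECAM1 had 69 and 80 counts in Scr against 69 and 87 in miR-27a KO, while TIE1 had 22 and 9 against 3 and 6, and VWF 7 and 13 against 0 and 2. The 4 neuronal markers summed to 0.765 and 0.608 CPM in Scr, 0.152 and 0.861 after miR-23a KO, and 1.45 and 1.204 after miR-27a KO, with ELAVL3 or SYT1 the most abundant. SYT1 had 0 counts in both Scr libraries, 0 and 1 after miR-23a KO, and 12 and 10 after miR-27a KO. RBFOX3 was at 0 in 4 of 6 libraries.

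The 3 fibroblast and stellate markers in the table summed to 216 and 182 CPM in Scr, 199 and 132 after miR-23a KO, and 152 and 150 after miR-27a KO, mostly ACTA2, with COL1A1 at 0 to 2 counts. PDGFRB, a receptor of mesenchymal cells, had 250 and 433 counts in Scr against 93 and 85 in miR-27a KO, lower as the neuropilins were. The 6 leukocyte markers summed to 545 and 566 CPM in Scr, 267 and 256 after miR-23a KO, and 1609 and 1669 after miR-27a KO. LYZ made up most of this in miR-27a KO, at 1495 and 1560 CPM, while the defining leukocyte gene PTPRC had 1 or 2 counts in each library. The part of these markers in the differences of the members was not tested. In bulk libraries such as these, fewer cells of a type and less RNA per cell cannot be told apart.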

How the data were processed

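RNA was sequenced as paired reads from 6 HepG2 libraries. The deposited values were taken for expected counts per gene, although the headers say FPKM. This rests on column sums of 14405250 to 16515261 and on 42.6% to 51.0% of values being exactly whole (34.5% to 40.8% of those above 0), and scaling for length was not tested. The submitters' processing notes name HISAT, StringTie, Cufflinks and GATK, and the counter and genome build are not given in the sources used here. The kit is named differently in the labels and the methods, and the counting is not stated to use strand, so reads of antisense genes such as SEMA3F-AS1 (0 to 24 counts) cannot be told apart. The label for cell type does not match HepG2 in its wording, the series text speaks of cells sorted by activity of the miRNAs where the methods describe knockouts, and titles were followed.

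Counts were rounded to whole numbers, with ties going to the even number. Each pair of groups was fitted with edgeR 4.0.16 (R 4.3.3) using filterByExpr, TMM, glmQLFit and glmQLFTest, with Benjamini-Hochberg adjustment over all genes tested. Overlap of libraries was read from CPM scaled over all 6 libraries, a choice made after values scaled per comparison had been seen, and among the members it changed only PLXNA2 in miR-23a KO against Scr. The rounding of ties was also changed after a first fit. The workflow was tested on simulated counts for miR-27a KO against Scr. These had less spread than the miR-23a KO libraries and no trend with GC content, and comparisons with miR-23a KO were not tested in this way. Transcript length, GC content and 3'-UTRs came from GENCODE release 29, which matched 89.4% of genes and all 30 members. Alternatives were median-ratio normalization, DESeq2 1.42.0, no filter, a fit of all 6 libraries, a replicate block, a loess correction for GC content and length (span 0.5, degree 2), the last 2 together, and leaving out each library. The fold change is given for members called, for members over 1.5-fold without overlap, and for NRP1 and NRP2, and of each other list up to 3 called genes each way are named. The members and lists were chosen with earlier results of these data known. Found among the deposited genes were 20 of 22 binding partners, 39 of 40 effectors, 7 of 8 proteases and 34 of 39 other guidance genes.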

Additional observations from a re-analysis of the deposited data

Results flagged for a closer look

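SEMA6A and PLXNB3 were flagged because every library of miR-23a KO lay below both Scr libraries and every library of miR-27a KO above them. SEMA6A had 4 and 8 counts in miR-23a KO, 168 and 200 in Scr, and 834 and 858 in miR-27a KO, and the log2 fold change between the knockouts was -7.06 (edgeR adjusted p = 0.0803, Benjamini-Hochberg). PLXNB3 had 261 and 175 counts in miR-23a KO, 395 and 315 in Scr, and 481 and 481 in miR-27a KO, and the log2 fold change was -0.99 (edgeR adjusted p = 0.6945). The value of PLXNB3 was -1.63 without miR-23a KO replicate 1 and -0.54, under 1.5-fold, without replicate 2. Neither difference passed the threshold in the fit of each pair of groups. SEMA6A passed it in 5 of the 7 other settings and PLXNB3 in 0. In miR-27a KO against Scr, PLXNB3 differed little, at a log2 fold change of 0.25 (edgeR adjusted p = 0.342). Of 13556 genes tested against Scr in both knockouts, 786 or 5.80% lay on opposite sides of Scr, counted in either direction. So did 2 of the 24 members (8.33%), a count near that share and not read as a result about the members. With libraries scaled over miR-23a KO and Scr alone, the miR-23a KO libraries of PLXNA2 also lay above both Scr libraries, opposite to miR-27a KO. Both comparisons with Scr use the same Scr libraries.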

How the results depend on the processing

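In miR-23a KO against Scr, where edgeR called 0 genes, DESeq2 called 63, no filter on low counts 10, the fit of all 6 libraries 3, the GC content and length correction 8, and leaving out a library between 4 and 2630. Members called there went from 0 to 1 (SEMA6A) under each of these settings but the last, which gave 0 to 5. Median-ratio normalization gave 0 genes and 0 members. In miR-27a KO against Scr, 1418 genes were called, 892 without a filter, 64 in the fit of all 6 libraries and 334 to 3716 without a library. The number of members called there was 8, with 1 in the fit of all 6 libraries and 5 to 11 without a library. Not all of these were among the 8, since PLXNA3, SEMA4B and SEMA4C were called without Scr replicate 2, and PLXNC1, SEMA3G and SEMA4A without Scr replicate 1, where SEMA6B was lost. Between the knockouts, DESeq2 called 477 genes, the fit of all 6 libraries 218, the GC content and length correction 167 and leaving out a library 72 to 7303, with 4, 4, 3 and 3 to 12 members, where the pairwise edgeR fit, median-ratio normalization and no filter each called 0 genes. A fit without a library assumes that the lone library varies like the others. The causes of these shifts were not tested, except that leaving out a miR-23a KO library removes the spread between these libraries from the fit.

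Replicate numbers are shared by the groups, and the deviations of libraries with the same number correlated at 0.196, 0.0175 and 0.0243 in the 3 comparisons. The labels give no more than a shared number, and 2 pairs are too few to tell whether libraries with the same number were made together. With a replicate block, 69 genes and 1 member were called in miR-23a KO against Scr, 1693 and 9 in miR-27a KO against Scr, and 400 and 3 between the knockouts. With the replicate block and GC content and length corrected, these were 78 and 1, 1563 and 9, and 742 and 5.

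Of the members given with a fold change, NRP1 in miR-23a KO against Scr was reversed with the replicate block (-0.20), with GC content and length corrected (-0.03648), with both (-0.02603), and over the fits without a library it ran from -1.23 to 0.71. NRP2 in that comparison ran from -0.98 to 1.31 without a library. Over the members given with a fold change and their settings, leave-outs included, 182 values kept their direction and side of the threshold, 57 passed it only in the alternative, 19 no longer passed it and 6 were reversed. Totals of 14405250 to 16515261 counts limit members with few counts.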
